A study of Mus musculus with 4 samples.

Results

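The subject is how far the effects of 2 hairpins in mouse embryonic stem (ES) cells added up when they were given together. For each gene the interaction was taken on the log2 scale as the level in cells with both the Esrrb and the Sox2 hairpin (dual), minus the level with the Esrrb hairpin, minus the level with the Sox2 hairpin, plus the level with a GFP hairpin. An interaction of 0 means that the log2 differences of the single knockdowns from GFP sum to that of the dual knockdown, so additivity here is additivity of fold changes. A positive value means a dual level above that sum, and a negative value a level below it. The genes were those whose detection score was above 0.99 on all 16 arrays, so that genes at the background did not enter. There were 7255 of them among 16593 genes with a symbol on the array.

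Hairpin RNAs had been brought in by lipofection: dual cells received those against both Esrrb and Sox2, Esrrb cells and Sox2 cells with the hairpin against that gene alone, and GFP cells with a hairpin against GFP, which was taken as the control. All groups, the control included, were selected in puromycin and harvested for RNA after 2 days of it. Biotin-labelled total RNA of each group was measured on 4 one-colour Illumina arrays, lettered A to D. The cells are labelled E14 and their culture is described only as usual for ES cells. The labels give neither the amount of each hairpin plasmid in the dual transfection nor whether the arrays of a group are separate transfections. The p-values therefore rest on the array-to-array spread alone, possibly a technical one, and a response to the second hairpin cannot be told apart from a response to a changed amount of the first.

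Sox2 binds DNA together with Oct4 through its HMG box, and Esrrb is a nuclear receptor without a known natural ligand. Both belong to the network of factors that keeps mouse ES cells in the naive state, in which the factors activate each other's genes and many targets carry binding sites for several of them. Loss of Sox2 from ES cells is known to turn them towards trophectoderm, the outer layer of the blastocyst that forms the placenta.

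The arrays had between 11286 and 12054 detected probes among arrays A and B and between 12994 and 13322 among arrays C and D, in every group, so the letters formed 2 sets. Of 10 ES cell markers, 9 were detected on all dual arrays and on all Sox2 arrays, and 10 on all Esrrb and all GFP arrays. The exception was Fgf4, a growth factor gene bound by Sox2 and Oct4, detected on 2 dual and 3 Sox2 arrays. Of 10 fibroblast markers, 5 were detected on all arrays of every group (Col1a1, Thy1, Fbln1, Acta2 and Twist1), and Col3a1 and Postn on no array. Trophectoderm markers detected on all arrays of a group numbered 8 of 10 in dual, 6 in Esrrb, 8 in Sox2 and 5 in GFP cells, with median log2 levels of 8.22, 6.31, 7.84 and 5.96. In bulk RNA, fewer cells of a type and less RNA per cell cannot be told apart, and the part of such shifts in the interaction was not tested.

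Most genes showed no interaction that the arrays could resolve. limma called 254 of 7255 genes at a Benjamini-Hochberg adjusted p under 0.05, which is 3.5% of those tested. Before adjustment limma's p was under 0.05 for 1223 genes, so the calls do not bound the number of genes with an interaction. The dual level lay above the sum of the single effects for 143 genes (1.97%) and below it for 111 genes (1.53%). The interaction reached 1.5-fold in 68 of the genes called higher and 57 of those called lower, and 2-fold in 15 and 8. The median size among called genes was 0.58 on the log2 scale and the smallest 0.30, while the median over all genes was 0.00. These counts depended on the scaling and on what is taken as a replicate. Median scaling over all probes in place of quantiles left 15 genes called higher and 9 lower, and means of the 2 sets of arrays taken as replicates left 18 and 6. Without normalization between the arrays the split was 343 higher and 49 lower, and the median of all genes then stood at 0.12.

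A missing call does not show additivity, so the interval of each interaction was set against a size of 1.5-fold. The 95% interval lay wholly inside 1.5-fold for 5459 genes, or 75.2%, and for 1564 genes that were not called it reached beyond. The half-width of an interval had a median of 0.28. Dim and bright genes were called at similar rates, 3.02% in the dimmest of 3 equal parts, 4.01% in the middle and 3.47% in the brightest. For 4 of the 143 genes called higher (Crtac1, Jam2, Septin1 and Wnt3a) the sum of the single effects fell below 5.41, the mean over the dual arrays of the lowest log2 level of a detected probe, so the size of their interaction rests on a prediction that the arrays could not have read.

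The interaction is the same number seen from either hairpin: the effect of the Esrrb hairpin beside the Sox2 hairpin (dual minus Sox2) less its effect alone (Esrrb minus GFP), or the effect of the Sox2 hairpin beside the Esrrb hairpin (dual minus Esrrb) less its effect alone (Sox2 minus GFP). The 2 differences of a pair share no array. The Esrrb hairpin changed 578 genes (7.97%) beside the Sox2 hairpin and 949 genes (13.1%) alone. Of these, 295 (4.07%) rose and 283 (3.9%) fell beside, and 485 (6.69%) rose and 464 (6.4%) fell alone. The Sox2 hairpin changed 3119 genes (43%) beside the Esrrb hairpin and 3347 (46.1%) alone, with 1582 (21.8%) higher and 1537 (21.2%) lower beside, and 1663 (22.9%) higher and 1684 (23.2%) lower alone. Across all 7255 genes, the Esrrb hairpin's effects in the 2 backgrounds correlated at r = 0.41 and the Sox2 hairpin's at r = 0.82. The genes are not independent, and the Esrrb hairpin's effects were smaller (SD over genes 0.20 beside and 0.23 alone, against 0.37 and 0.41 for the Sox2 hairpin), so that measurement error takes a larger share of them.

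Among genes called higher in the interaction, the usual course was a fall with the Esrrb hairpin alone that was missing beside the Sox2 hairpin. The median effect of the Esrrb hairpin on these 143 genes was 0.08 beside the Sox2 hairpin and -0.54 alone, and 97 of them were called for this hairpin alone but not beside. Only 11 were called in both backgrounds with the same sign, 25 beside but not alone, 2 with opposite signs, and 8 in neither. The Sox2 hairpin had similar medians on them, 0.06 beside and -0.53 alone, but 46 kept a call of the same sign and 15 had opposite signs. For this hairpin 55 were called alone but not beside, and 27 beside but not alone. Beside the Esrrb hairpin 51 were called higher and 37 lower, so the median near 0 covers calls in both directions. The medians of the 111 genes called lower had the opposite signs, though for the Esrrb hairpin not the same sizes. They were -0.18 beside and 0.39 alone for the Esrrb hairpin, and -0.01 beside and 0.54 alone for the Sox2 hairpin. The Sox2 hairpin kept a call of the same sign in 40 of them and had opposite signs in 13. Since these genes were chosen by the difference, the medians describe how it arose and are no further evidence for it.

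Genes chosen in 1 background only, and read in the other, gave a measure that the choice did not touch. The 115 genes called at least 1.5-fold lower with the Esrrb hairpin alone had a median of -0.21 beside the Sox2 hairpin, against the chosen median of -0.75 alone. There 42 were called lower and 0 higher, where 3.9% of all genes were called lower. Chosen the other way round, the 58 genes called at least 1.5-fold lower beside the Sox2 hairpin had a median of -0.72 there, which the choice fixes, and of -0.34 alone. Among rises, the 81 genes called at least 1.5-fold higher with the Esrrb hairpin alone had a median of 0.32 beside the Sox2 hairpin, against the chosen 0.70 alone. The 28 genes called at least 1.5-fold higher beside it kept nearly their whole effect, with 0.77 beside, where chosen, and 0.69 alone, and the sign was the same in 28 of 28. For the Sox2 hairpin the 416 genes called at least 1.5-fold lower alone had a median of -0.58 beside the Esrrb hairpin, against -0.78 alone. Choosing extremes in 1 set of arrays by itself draws the value in the other set towards 0. In the reverse direction the Sox2 hairpin's 297 genes called at least 1.5-fold lower showed none of that (-0.74 beside, where chosen, and -0.77 alone). Its 429 genes called at least 1.5-fold higher beside stood somewhat nearer to 0 alone (0.75 beside, where chosen, and 0.70 alone).

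**Figure D1:**
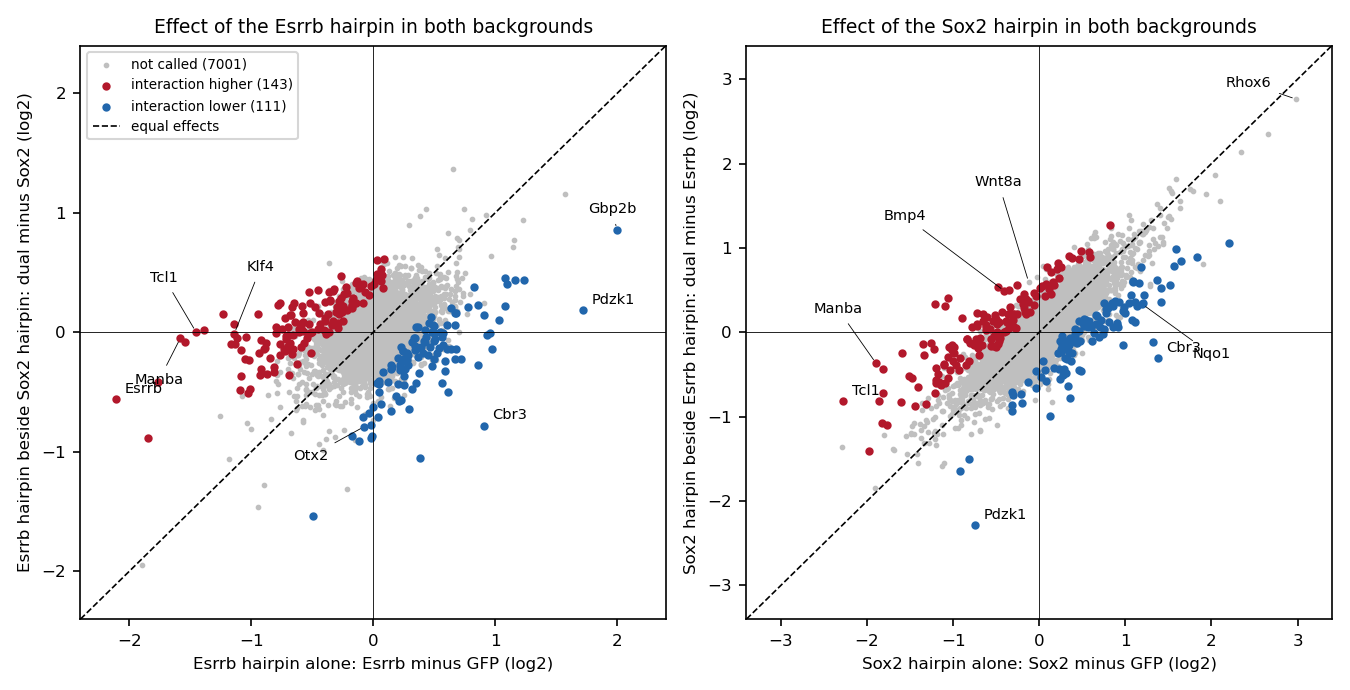
Effect of the Esrrb hairpin (left) and of the Sox2 hairpin (right) on each of 7255 genes as log2 differences, beside the other hairpin on the vertical axis and alone on the horizontal axis, with equal effects on the dashed line. Red points (143 genes) lie above the line by limma's test and blue points (111) below it, and in the left panel most red points sit near 0 on the vertical axis.

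Genes that both single knockdowns moved held most of the called interactions. Both singles were called against GFP for 630 genes, and the interaction was called for 162 of them, against 254 of all 7255 genes (3.5%). For 334 of the 630 the interval lay inside 1.5-fold. Of 109 genes that both single knockdowns changed by at least 1.5-fold, 62 had a called interaction. An interval inside 1.5-fold was counted only among those with a described symbol, and 16 had it. Large single effects leave more room for a difference in log2 units, and the single effects share the GFP arrays with the interaction, so these counts are descriptions. Of the 162 genes, 92 had both single knockdowns below GFP, 60 had both above it and 10 had them on opposite sides.

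The targeted transcripts themselves came first. Esrrb stood at log2 levels of 11.65, 11.88, 11.71 and 11.72 on the dual arrays, 11.34, 11.40, 11.41 and 11.46 on the Esrrb arrays, 12.32, 12.43, 12.22 and 12.22 on the Sox2 arrays and 13.49, 13.59, 13.45 and 13.50 on the GFP arrays. No group overlapped another, and the dual arrays lay above the Esrrb arrays although they carried both hairpins. The interaction of 1.55 (SE 0.09, adjusted p = 9.62e-08) was the largest positive one among called genes. In dual cells the Esrrb transcript was at 29.3% of its GFP level, against 23.2% in Esrrb cells and 43.2% in Sox2 cells, while the sum of the single effects would have left 10.02%. The Sox2 hairpin was followed by a higher Esrrb level beside the Esrrb hairpin (0.34, adjusted p = 0.000665) and a lower one alone (-1.21, adjusted p = 7.45e-10). The Esrrb level was thus higher in dual cells than in Esrrb cells, and whether this bears on the other genes was not tested.

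The Sox2 transcript showed no such departure. Its log2 levels were 8.64, 8.75, 8.45 and 8.64 on dual arrays, 9.09, 9.14, 8.92 and 8.86 on Esrrb arrays, 9.01, 9.16, 9.02 and 9.20 on Sox2 arrays and 9.52, 9.57, 9.68 and 9.44 on GFP arrays. The dual arrays lay below all others and the GFP arrays above all others. The interaction was 0.07 (SE 0.12, adjusted p = 0.823) with an interval from -0.18 to 0.32, and Sox2 stood at 52.5% of its GFP level in dual cells where the sum gives 49.99%. With the Sox2 hairpin alone 73.1% of the signal was left, and with the Esrrb hairpin alone 68.4%. Both falls were called (adjusted p = 0.000299 and 0.000246).

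Outside the targets, the largest positive interactions were of genes that each single knockdown lowered. Beside the Sox2 hairpin, the Esrrb hairpin took them little further down. Manba, which encodes the lysosomal enzyme beta-mannosidase, had log2 levels of 10.08, 10.02, 10.02 and 9.77 on dual arrays, 10.40, 10.37, 10.23 and 10.36 on Esrrb arrays, 10.08, 10.18, 9.86 and 9.97 on Sox2 arrays and 11.75, 12.03, 11.94 and 11.95 on GFP arrays. The dual arrays overlapped the Sox2 arrays and lay below the Esrrb and GFP arrays. Its interaction was 1.53 (SE 0.12, adjusted p = 1.21e-06), with 25.9% of the GFP level left in dual cells against 8.97% by the sum. Tcl1, a coactivator of the kinase Akt and a known ES cell target of the pluripotency factors, stood at 7.77, 7.61, 7.90 and 7.77 on dual arrays, 8.40, 8.44, 8.66 and 8.82 on Esrrb arrays, 7.66, 7.83, 7.75 and 7.79 on Sox2 arrays and 10.11, 9.83, 10.002 and 10.19 on GFP arrays. Here too dual and Sox2 arrays overlapped, and the Esrrb hairpin's effect was 0.00 beside the Sox2 hairpin, against -1.45 alone (interaction 1.46, SE 0.14, adjusted p = 9.75e-06).

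The other genes at the top were also lowered by each single knockdown. Interactions were 1.46 for Crtac1, a secreted matrix protein, 1.41 for Zfhx2, a zinc finger and homeobox factor, and 1.38 for Dnajc6, an auxilin that uncoats clathrin vesicles. Jam2, a junctional adhesion molecule, followed at 1.35, Bcat1, a transaminase of branched-chain amino acids, at 1.21, Klf4 at 1.13 and Dpp4, a cell-surface peptidase, at 1.10. Wnt3a, a Wnt ligand, and Ly6g6e stood at 1.07 each. For all of these the effect of the Esrrb hairpin beside the Sox2 hairpin lay between -0.41 and 0.16 and was not called, against a fall of -1.77 to -0.94 alone that was called in each. The Sox2 hairpin's effect beside the Esrrb hairpin differed among them. It was a called rise for Crtac1 (0.40) and Zfhx2 (0.32), whose dual level thus lay above that of Esrrb cells. It was a called fall for Dpp4 (-0.72), Dnajc6 (-0.43) and Ly6g6e (-0.27). For Jam2, Bcat1, Klf4 and Wnt3a it was not called.

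A plateau, in which both singles moved a gene the same way and the dual level differed from neither by limma's test, was met by 58 called genes, 36 with a positive and 22 with a negative interaction. Without regard to the interaction, 194 of all tested genes met it. Klf4, a Kruppel-like factor of the naive network, gave 8.14, 8.14, 8.26 and 8.16 on dual arrays, 8.21, 8.24, 8.32 and 8.46 on Esrrb arrays, 8.33, 8.13, 8.30 and 7.99 on Sox2 arrays and 9.39, 9.43, 9.53 and 9.43 on GFP arrays. All 3 knockdowns overlapped each other and lay below GFP. The dual level was 41.5% of GFP, against 45.4% in Esrrb and 41.8% in Sox2 cells, and the sum gives 18.97% (interaction 1.13, SE 0.11, adjusted p = 1.32e-05). Bcat1 likewise had 11.29, 11.47, 11.29 and 11.28 on dual arrays, 11.55, 11.47, 11.35 and 11.51 on Esrrb arrays, 11.23, 11.24, 11.29 and 11.29 on Sox2 arrays and 12.50, 12.57, 12.72 and 12.66 on GFP arrays. The dual arrays overlapped those of both single knockdowns and lay below GFP, and the dual level was 41.2% of GFP where the sum gives 17.8%.

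**Figure D2:**
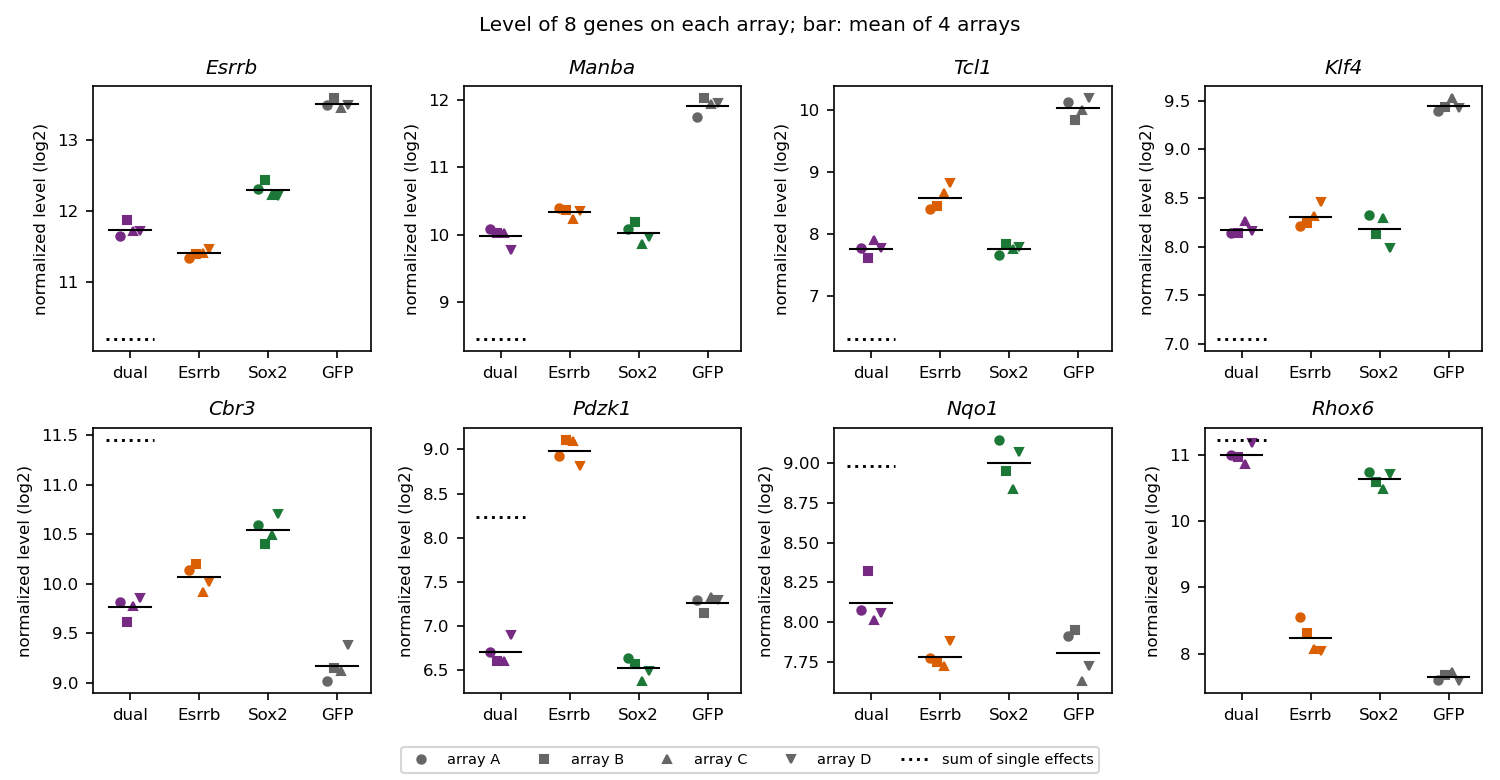
Normalized log2 level of 8 genes on each array of the dual, Esrrb, Sox2 and GFP groups, with the mean of 4 arrays as a bar and the sum of the single effects as a dotted line at the dual position. Dual arrays lie above the dotted line for Esrrb, Manba, Tcl1 and Klf4, below it for Cbr3, Pdzk1 and Nqo1, and within 0.22 of it on average for Rhox6.

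The naive pluripotency genes as a list had the highest median interaction of 42 lists. Of 14 tested members, 7 were called higher and 0 lower, where 1.97% of all genes were called higher, and the median was 0.57 against 0.00 over all genes. The called members were Tcl1, Jam2, Klf4, Tbx3 (0.82), Klf5 (0.80), Zfp42 (0.75) and Nr5a2 (0.52), of which Tbx3 and Zfp42 were named after their values were seen. Klf5 and Tbx3 are transcription factors of the naive network, Zfp42 encodes the marker Rex1, and Nr5a2 is a nuclear receptor that can drive Oct4. The call of Nr5a2 was lost in 12 of 16 fits that left out 1 array (adjusted p up to 0.0904). Tbx3 and Zfp42 were not followed through these fits. The median effect of the Esrrb hairpin on the list was -0.10 beside the Sox2 hairpin and -0.88 alone, and of the Sox2 hairpin -0.63 beside and -1.27 alone.

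The list did not move as 1 block. Khdc3, a maternal-effect gene strongly lowered by the Esrrb hairpin, had differences of -1.95 beside the Sox2 hairpin and -1.90 alone, and an interaction of -0.05. Klf2 and Pecam1 showed the same for the Sox2 hairpin, with -1.55 and -1.32 beside the Esrrb hairpin, against -1.41 and -1.28 alone. Their interactions were -0.14 and -0.03. Nanog at 0.36, Eras at 0.55 and Gbx2 at 0.59 were positive but not called, and Dppa3 stood at -0.19. These 7 were also named after their values were seen.

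In the general pluripotency list 2 of 14 members were called higher, Utf1 (0.49) and Mybl2 (0.48), and 0 lower, with a median of 0.07. Of all genes, 1.97% were called higher and 1.53% lower. Pou5f1, which encodes Oct4, had an interaction of 0.01, and Sall4 one of 0.05. Utf1, a chromatin-bound target of Oct4 and Sox2, lost its call in 13 of the 16 fits without 1 array (adjusted p up to 0.0983). Of the nuclear receptors, Esrrb, itself a target of the hairpins, and Nr5a2, whose call was lost in 12 of the 16 fits, were called among 8. Of the Sox and Pou factors, Sox21 was called among 7 (0.82, adjusted p = 0.0166), a Sox family member that both single knockdowns lowered. Of the Kruppel-like factors, Klf4 and Klf5 were called among 9, and 7 of the 9, Klf2 included, were not.

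Genes read as outputs of signalling showed calls in both directions. In the FGF and ERK feedback list 3 of 9 members were called higher, where 1.97% of all genes were, and 0 lower, with a median of 0.26. These were Etv4 (0.79), Dusp6 (0.53) and Etv5 (0.46), ETS factors and a phosphatase that ERK activity induces. The Esrrb hairpin raised Dusp6 and Etv5 beside the Sox2 hairpin (0.61 and 0.53) but not alone (0.08 and 0.06, neither called). For Etv4 its effect was -0.23, not called, beside and -1.02 alone. The calls of Dusp6 and Etv5 were lost in 5 and 13 of the 16 fits that left out 1 array, with adjusted p up to 0.0587 and 0.0979. In the LIF and STAT3 list the 3 members called higher of 11 were Klf4, Klf5 and Tfap2c, already in other lists, while Socs3 and Stat3 stood at 0.13 and -0.42 and were not called. The list's median was -0.09.

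Bmp4, the ligand, was called higher, and Id2 and Id3, which BMP signals induce, were called lower. Bmp4 had log2 levels of 10.33, 10.59, 10.41 and 10.46 on dual arrays, 9.99, 9.84, 9.96 and 10.04 on Esrrb arrays, 10.18, 10.12, 10.28 and 10.21 on Sox2 arrays and 10.42, 10.59, 10.67 and 10.74 on GFP arrays. Each single knockdown lay below GFP, whereas the dual arrays overlapped GFP (interaction 0.90, SE 0.11, adjusted p = 0.000138). Id2, an inhibitor of basic helix-loop-helix factors, had 7.71, 7.76, 8.02 and 8.16 on dual arrays, 7.99, 7.92, 8.41 and 7.90 on Esrrb arrays, 8.34, 8.36, 8.29 and 8.64 on Sox2 arrays and 7.48, 7.44, 7.39 and 7.45 on GFP arrays. Both single knockdowns raised it, and the dual arrays lay below the Sox2 arrays and overlapped the Esrrb arrays (interaction -1.11, SE 0.17, adjusted p = 0.00103). Id1, named after its value was seen, stood at -0.30 and was not called (adjusted p = 0.0619). Id3 stood at -0.57, with its call lost in 10 of the 16 fits without 1 array (adjusted p up to 0.0722), so the list of 10 held 1 higher and 2 lower calls and a median of -0.14. Neither the Wnt list (0 of 11 called) nor the Nodal and Lefty list (0 of 9) had a called member. For lists of this size that is near the 3.5% of all genes called in either direction.

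Wnt8a, a Wnt ligand of the early primitive streak and a member of the primed epiblast list, had a large but poorly resolved interaction. Its log2 levels were 8.29, 8.47, 7.35 and 7.76 on dual arrays, 7.63, 7.75, 6.89 and 7.22 on Esrrb arrays, 6.93, 6.43, 6.64 and 6.39 on Sox2 arrays and 6.77, 6.75, 6.79 and 6.58 on GFP arrays. Arrays C and D stood below A and B in the dual and the Esrrb group, and the Sox2 arrays overlapped GFP. The interaction of 0.72 had an interval from 0.07 to 1.36 and an adjusted p of 0.239. The primed epiblast list had a median of -0.13 and 1 of 7 members called, where 3.5% of all genes were. That member was Otx2, a homeobox factor of the primed epiblast. It had 7.35, 7.12, 6.96 and 6.93 on dual arrays, 8.64, 8.88, 8.76 and 8.64 on Esrrb arrays, 7.81, 7.82, 7.69 and 8.20 on Sox2 arrays and 8.51, 8.89, 8.95 and 8.87 on GFP arrays. The Esrrb arrays overlapped GFP, yet the dual arrays lay below all Sox2 arrays. The Esrrb hairpin's effect on Otx2 was therefore -0.79 beside the Sox2 hairpin (adjusted p = 0.000753) and -0.07 alone (adjusted p = 0.761), an interaction of -0.72 with an adjusted p of 0.0301. That call was lost in 5 of the 16 fits without 1 array, at adjusted p up to 0.0598.

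The largest negative interaction was of Cbr3, a carbonyl reductase. Its log2 levels were 9.82, 9.61, 9.77 and 9.86 on dual arrays, 10.14, 10.20, 9.92 and 10.01 on Esrrb arrays, 10.59, 10.40, 10.49 and 10.70 on Sox2 arrays and 9.01, 9.15, 9.11 and 9.38 on GFP arrays. No group overlapped another, and the dual arrays lay below both single knockdowns although each of those lay above GFP. Cbr3 was at 152% of its GFP level in dual cells, against 187% in Esrrb and 260% in Sox2 cells and 487% by the sum (interaction -1.69, SE 0.13, adjusted p = 1.21e-06). Both hairpins changed sign with the background: the Esrrb hairpin's effect was -0.78 beside the Sox2 hairpin and 0.90 alone, and the Sox2 hairpin's -0.30 beside the Esrrb hairpin and 1.38 alone, all 4 called. A second, dimmer probe of Cbr3 gave an interaction of -1.98.

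Cbr3 belongs to a list of genes that the transcription factor NRF2 induces under oxidative stress through antioxidant response elements. In that list 0 of 14 tested members were called higher and 5 lower, where 1.53% of all genes were called lower, and 13 of 14 had a negative interaction, with a median of -0.35. The other called members were Nqo1 (-0.86), a quinone reductase, Nfe2l2 (-0.80), which encodes NRF2 itself, Srxn1 (-0.80), sulfiredoxin, and Gclm (-0.64), a subunit of the enzyme that limits glutathione synthesis. Srxn1 and Gclm were named after their values were seen. The call of Nfe2l2 was lost in 10 of the 16 fits that left out 1 array (adjusted p up to 0.0743), through which Srxn1 and Gclm were not followed. The Esrrb hairpin lowered 6 members of the list beside the Sox2 hairpin, where 3.9% of all genes were called lower, and 0 alone (6.4% of all genes).

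Nqo1 is the second of the list by size, and unlike for Cbr3 the effect of the Esrrb hairpin alone was not called (-0.02, against 0.90 for Cbr3). Its log2 levels were 8.07, 8.32, 8.01 and 8.06 on dual arrays, 7.78, 7.75, 7.73 and 7.88 on Esrrb arrays, 9.14, 8.95, 8.84 and 9.07 on Sox2 arrays and 7.92, 7.95, 7.63 and 7.72 on GFP arrays. The Esrrb arrays overlapped GFP, the Sox2 arrays stood highest, and the dual arrays lay between them without overlap. The Sox2 hairpin's effect was 0.33 beside the Esrrb hairpin (adjusted p = 0.00704) and 1.20 alone (adjusted p = 2.45e-08). Txnrd1 and Hmox1, also textbook targets of NRF2, had interactions of -0.04 and -0.33 that were not called, and Keap1, the protein that holds NRF2 in check, stood at 0.07. These 3 were named after their values were seen.

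**Figure D3:**
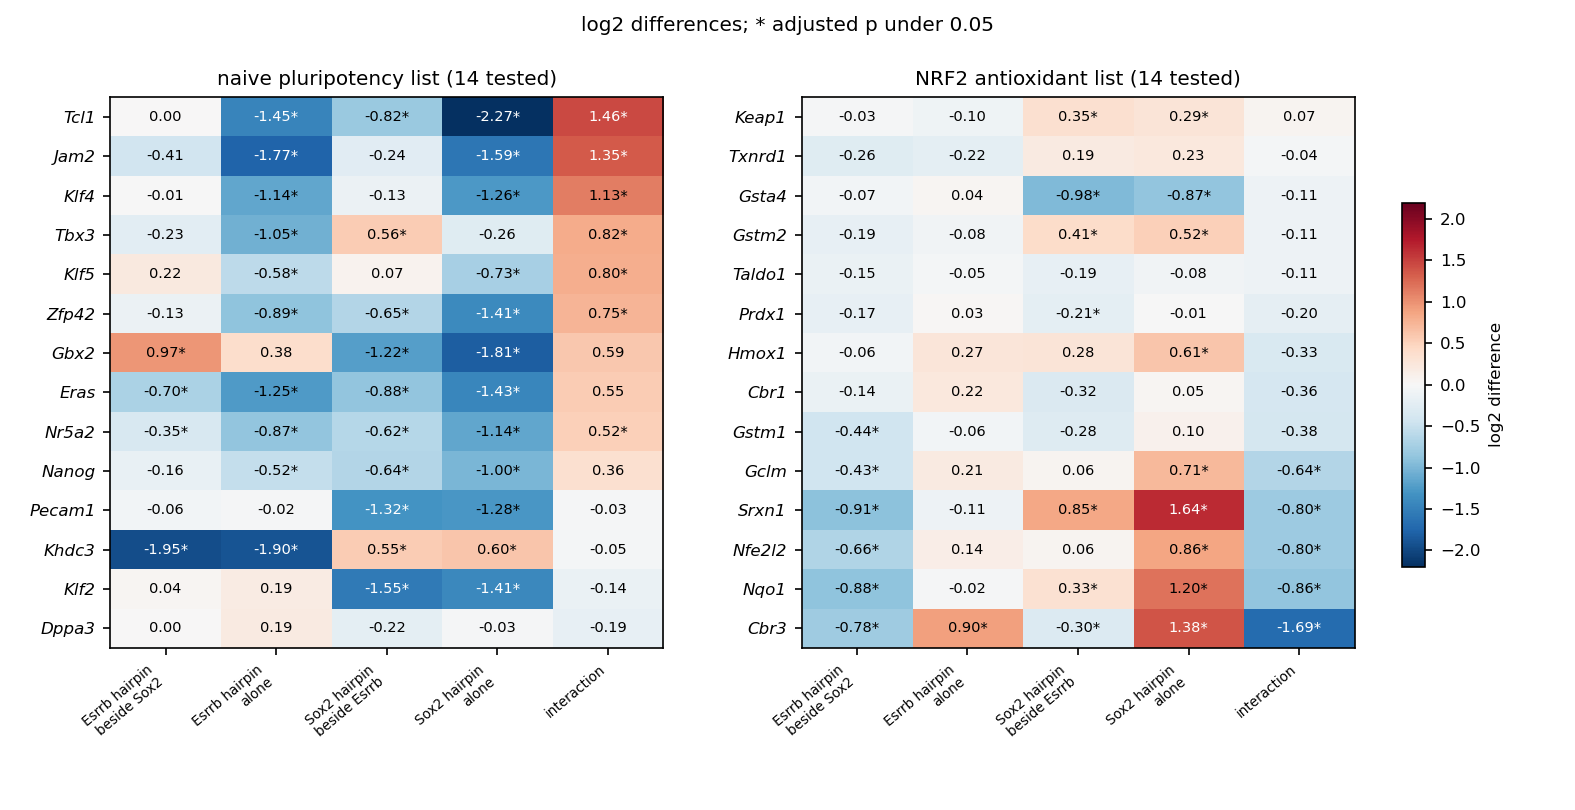
Log2 differences of the members of the naive pluripotency list (left) and of the NRF2 antioxidant list (right) for each hairpin beside the other and alone, and the interaction, with an asterisk at an adjusted p under 0.05. In the left panel most members are near 0 in the first column and negative in the second, and in the right panel the 5 members at the bottom are negative in the first column and, apart from Cbr3 at 0.90, between -0.11 and 0.21 in the second.

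The promoters of the called NRF2-list genes were read for the core of the antioxidant response element, TGACNNNGC, on both strands, in the window from 250 bases before to 50 after the start of the gene as RefSeq gives it for GRCm38.p6. A match is a description of letters and no binding site. Of the 5 genes called lower, 3 held it, and they are printed here because they are the called members of the list in which the letters occur, with the match in capitals. They are Gclm at chr3:122245307-122245606 on the plus strand, Nfe2l2 at chr2:75704614-75704913 on the minus strand and Srxn1 at chr2:152105274-152105573 on the plus strand, each 5′ to 3′ along its gene. The Gclm and Srxn1 matches read on the opposite strand.
Gclm: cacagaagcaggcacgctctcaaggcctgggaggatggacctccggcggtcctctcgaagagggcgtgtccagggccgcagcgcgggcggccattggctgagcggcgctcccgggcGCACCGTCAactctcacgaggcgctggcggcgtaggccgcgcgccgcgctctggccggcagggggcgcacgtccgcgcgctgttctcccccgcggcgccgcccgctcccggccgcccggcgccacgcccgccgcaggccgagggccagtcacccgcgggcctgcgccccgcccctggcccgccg
Nfe2l2: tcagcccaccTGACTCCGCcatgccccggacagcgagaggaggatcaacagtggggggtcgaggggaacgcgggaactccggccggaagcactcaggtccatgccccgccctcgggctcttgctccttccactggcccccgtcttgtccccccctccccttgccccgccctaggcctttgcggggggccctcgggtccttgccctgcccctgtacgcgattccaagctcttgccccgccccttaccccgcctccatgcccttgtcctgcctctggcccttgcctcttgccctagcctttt
Srxn1: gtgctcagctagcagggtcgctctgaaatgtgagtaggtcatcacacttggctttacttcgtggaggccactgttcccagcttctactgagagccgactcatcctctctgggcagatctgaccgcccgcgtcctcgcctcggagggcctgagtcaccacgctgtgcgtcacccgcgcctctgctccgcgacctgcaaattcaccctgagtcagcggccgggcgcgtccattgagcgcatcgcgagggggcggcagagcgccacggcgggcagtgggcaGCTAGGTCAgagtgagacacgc

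The windows of Cbr3 and Nqo1 held no match, which says only that these letters are not in them. Of 12 list members with a promoter in the table, 5 held the motif. Among all tested genes with a promoter 982 of 5922 held it in any window (16.6%), against 20 of 95 among the genes called lower (21.1%) and 18 of 108 among those called higher (16.7%). Counted by window and not by gene, 4071 of all 32851 windows in the table held it (12.4%). Again by gene, the letters AAGGTCA, read by Esrrb, stood in a window of 4.21% of genes called lower, 3.7% of those called higher and 3.87% of those tested. The letters CATTGTT, read by Sox factors, stood in 3.16%, 4.63% and 1.98%, or 3, 5 and 117 genes.

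Further down the negative side, Pdzk1, a scaffold protein with PDZ domains, had log2 levels of 6.70, 6.60, 6.60 and 6.90 on dual arrays, 8.93, 9.11, 9.09 and 8.81 on Esrrb arrays, 6.64, 6.57, 6.37 and 6.49 on Sox2 arrays and 7.29, 7.14, 7.32 and 7.29 on GFP arrays. The Esrrb arrays stood highest and the dual arrays overlapped the Sox2 arrays, so the rise after the Esrrb hairpin (1.72 alone) was 0.18 and not called beside the Sox2 hairpin. The interaction was -1.54 (SE 0.12, adjusted p = 1.21e-06). Fcgrt, the neonatal Fc receptor, had 7.61, 8.10, 8.15 and 8.03 on dual arrays, 8.04, 7.94, 8.15 and 8.22 on Esrrb arrays, 8.89, 9.01, 9.01 and 9.20 on Sox2 arrays and 7.68, 7.59, 7.72 and 7.82 on GFP arrays. The Sox2 arrays stood highest, the Esrrb arrays lay above GFP, the dual arrays overlapped both Esrrb and GFP, and the Esrrb hairpin's effect turned to -1.05 beside the Sox2 hairpin, against 0.39 alone (interaction -1.44, SE 0.15, adjusted p = 2.92e-05).

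Of the 12 most negative interactions, those not described by themselves lay between -1.13 and -0.94. Zfp428 (-1.13), Gstt2 (-1.11), Coro1a (-0.96) and Selenop (-0.94) were raised by the Esrrb hairpin alone by 0.72 to 0.97, while its effect beside the Sox2 hairpin lay between -0.27 and 0.00 and was not called. Gstt2 is a glutathione transferase, Coro1a an actin-binding coronin and Selenop a secreted selenium carrier. Glrx (-0.94) is a glutaredoxin and Dio3 (-1.05) an enzyme that inactivates thyroid hormone. Both were raised by the Sox2 hairpin alone, by 1.08 and 1.41, and fell with the Esrrb hairpin beside it, by 0.64 and 1.54. The Esrrb hairpin alone raised Glrx (0.30) and lowered Dio3 (-0.49), both called. Dio3 was dim in Esrrb cells, with a mean log2 level of 5.98. Tdpoz2 (-0.96) belongs to a family of near-identical copies, whose probes may read more than 1 member.

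Gbp2b encodes a guanylate-binding protein of a family that interferon-gamma and Irf1 induce, and it rose with each hairpin but less than the sum in dual cells. Gbp2b had log2 levels of 10.65, 10.25, 10.39 and 10.41 on dual arrays, 9.57, 9.41, 9.35 and 9.13 on Esrrb arrays, 9.67, 9.60, 9.52 and 9.49 on Sox2 arrays and 7.24, 7.43, 7.45 and 7.35 on GFP arrays. The dual arrays stood highest of all without overlap, so the interaction of -1.14 (SE 0.14, adjusted p = 0.000125) is a smaller further rise and no fall. In percent of GFP the dual level was 834%, against 399% in Esrrb and 460% in Sox2 cells, where the sum of log2 effects gives 1838% and where differences on the linear scale left an interaction of 125.2 intensity units (adjusted p = 0.489). In the list of guanylate-binding genes, Irf1 and chemokines 3 of 5 tested members were called lower, where 1.53% of all genes were, and 0 higher (median -0.72): Gbp2b, Igtp (-0.77), an immunity-related GTPase, and Irf1 (-0.72), an interferon regulatory factor. Gbp3 rose in each knockdown and added up, with an interaction of 0.06 and an interval from -0.23 to 0.34. In the list of other interferon-response genes Irgm1 was the 1 called member of 9 (-0.44), with its call lost in 13 of the 16 fits without 1 array (adjusted p up to 0.0922), and 0 of 5 MHC class I genes were called.

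Of 15 genes of the trophectoderm and placenta, 12 rose with the Sox2 hairpin alone, as did 22.9% of all genes. The list held 1 called interaction, where 3.5% of all genes were called, and its median was 0.06. The called member was Tfap2c (0.50), a factor of both trophectoderm and naive ES cells that the Esrrb hairpin alone had lowered. Rhox6, a homeobox gene of the placenta, had log2 levels of 10.998, 10.97, 10.87 and 11.18 on dual arrays, 8.55, 8.30, 8.07 and 8.04 on Esrrb arrays, 10.74, 10.59, 10.49 and 10.71 on Sox2 arrays and 7.60, 7.68, 7.73 and 7.58 on GFP arrays. No group overlapped another, and the steps of both hairpins stacked: 1024% of GFP in dual cells, against 151% and 792% with the single hairpins and 1194% by the sum. Its interaction of -0.22 had an interval from -0.53 to 0.08 (adjusted p = 0.481). On the linear scale, where effects add as intensities, the sign turned, with 362.3 units above the sum (adjusted p = 0.0483). Car4, a carbonic anhydrase, showed -0.07 with an interval from -0.46 to 0.31, and the keratin genes Krt8 and Krt18, named after their values were seen, -0.18 and -0.31, not called.

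Among genes that both single knockdowns changed by at least 1.5-fold and whose interval stayed inside 1.5-fold, the 6 with the largest dual changes were Rhox6, Car4, Gbp3, Adgre5, Prtg and Cela2a. Adgre5, an adhesion receptor, fell to 31.8% of GFP in dual cells where the sum gives 29.2%. Prtg, the surface protein protogenin, rose to 301% where the sum gives 331%, and Cela2a, a pancreatic elastase, fell to 38.0% where the sum gives 31.6%. These genes came from 16 with a described symbol that met the condition. Both single effects were of that size in 109 genes, undescribed symbols included.

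For 13 called genes limma called neither single knockdown against GFP but did call the dual knockdown (47% of all genes), a pattern met by 651 of all tested genes without regard to the interaction. The members with the largest interactions were S100a13 (-0.79), a calcium-binding protein, Gjb2 (0.68), a gap junction connexin, and Rhox10 (-0.66), a homeobox gene. S100a13 was at 79.9% of GFP in dual cells and at 117% and 118% in Esrrb and Sox2 cells. Its dual arrays overlapped the GFP arrays, and limma's adjusted p for dual against GFP was 0.04. Gjb2 was at 137% in dual cells and at 79.8% and 107% in Esrrb and Sox2 cells, with its call lost in 5 of the 16 fits without 1 array (adjusted p up to 0.0599). Rhox10 was at 69.9% in dual cells and at 104% and 106% in the single knockdowns. The reverse pattern, both singles called and the dual knockdown not, was met by 21 called genes. Its count over all tested genes was not taken, and choosing genes by the interaction favours it, so the 21 only describes these genes.

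Other lists held few calls, to be read against the 1.97% of all genes called higher and the 1.53% called lower. A single call in a list of 10 to 20 genes is near that share. Two-cell-like genes, active in the cleavage embryo and in a small share of ES cells, had 2 of 6 members called lower, Tdpoz4 (-0.86) and Tcstv1 (-0.49), and a median of -0.41, and both belong to families of near-identical copies. Extraembryonic endoderm genes had 2 of 10 called higher, Lama1 (0.86), a laminin chain of the basement membrane, and Amn (0.79), a receptor subunit of visceral endoderm. Imprinted genes had 2 of 13 called lower, Phlda2 (-0.69), which restrains placental growth, and Dlk1 (-0.48), a membrane ligand. Genes of the ATF4 amino acid response had 2 of 20 called higher, Slc7a3 (0.56) and Asns (0.43), an amino acid transporter and asparagine synthetase, and 1 lower, Ddit4 (-0.40), an inhibitor of mTORC1. Single members were called in the lists of neuroectoderm (Stmn2, 0.52, of 4), PI3K and Akt (Tcl1, of 10), p53 targets (Pmaip1, 0.60, of 15), annexins and S100 proteins (S100a13, of 11), glycolysis and hypoxia (Ndrg1, -0.82, of 19) and housekeeping genes (Tfrc, -0.49, of 9). The calls of Lama1, Tcstv1, Slc7a3, Asns, Ddit4, Pmaip1 and Tfrc were each lost in 2 to 14 of the 16 fits without 1 array, at adjusted p up to 0.1003.

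Actin cytoskeleton genes and targets of SRF and YAP had 1 of 17 members called, Ankrd1 (0.54), and 16 of 17 with a positive interaction around a median of 0.15. The call of Ankrd1 was lost in 7 of the 16 fits without 1 array (adjusted p up to 0.061). Lysosomal genes had 0 of 16 called and 14 of 16 with a negative interaction around a median of -0.19. Several lists of growth and basic cell functions held no called interaction, which for lists of this size is near the 3.5% of all genes. The counts were 0 of 18 for DNA replication, 0 of 13 for mitosis and 0 of 13 for the Myc family and G1 regulators. They were 0 of 15 for cytosolic ribosomal proteins, 0 of 20 for the proteasome and 0 of 21 for oxidative phosphorylation. Endoplasmic reticulum chaperones had 0 of 12 and cholesterol synthesis 0 of 12. No member was called either among 10 Polycomb genes, 6 of DNA methylation, 9 immediate early genes, 14 adhesion genes, 5 mesendoderm genes and 8 fibroblast markers. Over the 18 lists without a call the medians ran from -0.19 to 0.21. In all, 13 of 42 lists held only higher calls, 9 only lower and 2 both.

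**Figure D4:**
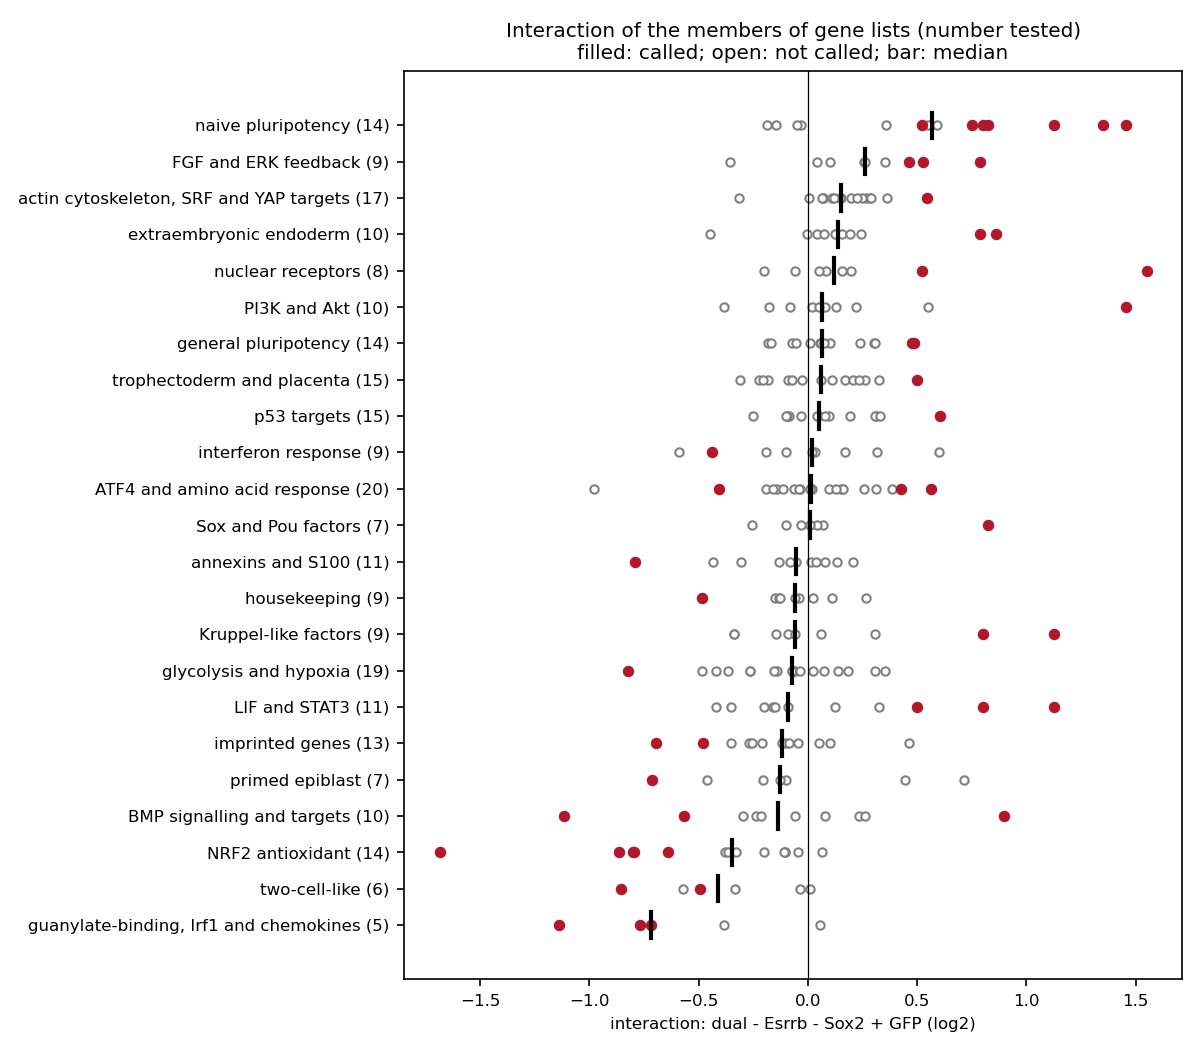
Interaction on the log2 scale of each tested member of the 23 lists with a called member and at least 5 tested, ordered by their medians (black bars), with called members filled and others open. The naive pluripotency list has the highest median (0.57) and the guanylate-binding list the lowest (-0.72), and most lists centre near 0.

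The sets of arrays lettered A and B and lettered C and D share no array, and each gives an interaction of its own from 2 arrays per group. Of 38 genes called from arrays A and B alone, 22 higher and 16 lower, 38 had the same sign on arrays C and D and 18 were also called there. Of 50 genes called from C and D alone, 50 had the same sign on A and B. Across all 7255 genes the interactions of the 2 sets correlated at r = 0.55, where the genes are not independent. With the set as a block in the fit limma called 230 genes higher and 193 lower, and all 254 genes called without it were among them. By limma 0 genes differed between the sets at an adjusted p under 0.05, and 230 at an unadjusted one. The labels do not say what the sets are, and if the sets come from the same RNA this agreement is technical.

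**Figure D5:**
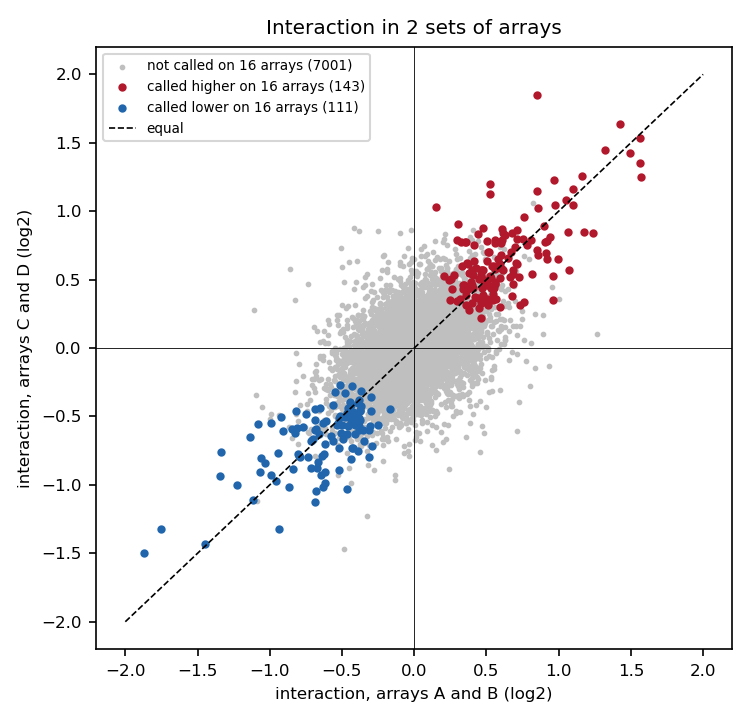
Interaction of each of 7255 genes on the log2 scale from arrays C and D (vertical) and from arrays A and B (horizontal), with equal values on the dashed line. Genes called on all 16 arrays (143 higher in red, 111 lower in blue) were chosen with both sets in view and have the same sign in each, and grey points are the 7001 genes not called.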

How the data were processed

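RNA of 4 groups was measured on 16 arrays, 4 per group. The authors deposited linear intensities that, per the file headers, had not been normalized, with part of the values below 0, and a detection score beside each. The score is named a p-value in the file headers but rises with the intensity (rank correlation at least 0.93 on each array), so it was read as 1 minus p. The authors also deposited 1 processed ratio per probe and group, which served only as an alternative. The sources used here name neither the scaling of that ratio nor the scanner software nor the authors' background step.

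Of 25697 probes, 23978 had 1 gene symbol. The background was estimated from the detection scores, all arrays were normalized by quantiles and log2 was taken with an offset of 16 (neqc of limma 3.58.1, under R 4.3.3). The probe with the highest mean stood for a gene. The 7255 genes with a score above 0.99 on all 16 arrays entered lmFit and eBayes with 1 mean per group and no covariate, and all contrasts came from that fit. Adjustment was by Benjamini-Hochberg over these 7255 genes, a gene was called when the adjusted p was under 0.05, and all adjusted p-values are limma's. The interval of an interaction is limma's moderated 95% interval. The procedure was tested on simulated data. The number of arrays limits the precision. No 2 arrays had identical values.

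The genes and the 42 lists were chosen with earlier results of these data known, so lists are described by counts and medians and were not tested. Genes named are Esrrb and Sox2, the 12 largest called interactions in each direction, up to 3 called members of each list (1 where none was called), the 3 largest called interactions of each pattern, and the 6 largest dual changes with additive single effects. Undescribed symbols were passed over. Of the 83 genes this gave, 58 were called, and in 23 with several detected probes 0 differed in the sign of the interaction between probes. Others were named after their values were seen, and are not all members of their lists. Promoters are from RefSeq (GRCm38.p6). Alternatives were the scaling, the offset, the linear scale, the detection filter, the probe choice, the variance model, the array set or letter as a block, each set alone, and leaving out each array. Per-sample columns left unused numbered 0.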

Additional observations from a re-analysis of the deposited data

Results flagged for a closer look

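The interaction is itself a difference of a hairpin's effect between 2 backgrounds, and limma called it for 143 genes in the positive and 111 genes in the negative direction.

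Among 64 groups of 4 arrays examined for the 16 genes printed array by array, 2 held an array far from the other 3 by Dixon's 95% criterion, and chance gives about 1 in 20. For Klf4, dual array C stood at 8.26 on the log2 scale, above the next at 8.16. For Bcat1, dual array B stood at 11.47, above the next at 11.29. Without any single array the interactions of both genes stayed called.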

How the results depend on the processing

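The number of genes called depended on the scaling. Median scaling over all probes in place of quantiles left 15 genes called higher and 9 lower, with 32 for the Esrrb hairpin beside Sox2 and 173 alone, 1173 for the Sox2 hairpin beside Esrrb and 1497 alone, and 2818 intervals inside 1.5-fold. Median scaling over the detected probes only, chosen after seeing the data, gave 132 and 109. No normalization gave 343 and 49, and the linear scale 233 higher. The array set as a block gave 230 and 193. Arrays A and B alone, with fewer arrays, gave 22 and 16, with 139 beside and 360 alone for the Esrrb hairpin and 2020 beside and 2133 alone for the Sox2 hairpin. Arrays C and D alone gave 30 and 20, with 111 beside and 479 alone for the Esrrb hairpin. Set means taken as the replicates gave 18 and 6, with 70 beside and 338 alone for the Esrrb hairpin. The cause of the scaling differences was not tested. The replicate letters did not pair the arrays, as the deviations of same-lettered arrays from their group means correlated at 0.03 to 0.39 and those of the other letter of the set at 0.16 to 0.43, and the replicate block gave 199 and 158.

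Leaving out 1 array gave 95 to 136 genes called higher and 76 to 135 lower, 358 to 617 beside and 720 to 1110 alone for the Esrrb hairpin, 2786 to 3154 beside and 3005 to 3552 alone for the Sox2 hairpin, and 5218 to 5554 intervals inside 1.5-fold. The count of 143 fell to 95 without GFP array D and without Esrrb array C, and the 578 genes of the Esrrb hairpin beside Sox2 to 358 without Sox2 array B.

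Of the 58 named genes called, 58 stayed called under an offset of 50, a stricter detection score, either block and a trended, robust variance, 17 under median scaling over all probes, 19 with set means as replicates, 19 on arrays A and B alone and 28 on arrays C and D alone, with all 58 signs kept in each. On the linear scale 2 named genes turned sign, Gbp2b to 125.2 (adjusted p = 0.489) and Rhox6 to 362.3 (adjusted p = 0.0483), and 8 lost their call. The authors' ratios gave interactions that correlated with these at r = 0.99 over all genes, with 0 called genes of opposite sign. With 4 arrays per group the smallest called interaction was 0.30.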
